A study of Mus musculus with 14 samples.

Results

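The Wnt ligands, their receptors and their inhibitors were followed as 57 protein-coding genes out of 55471 gene rows in a count table of mouse brown adipose tissue (BAT), the fat depot that burns fuel to make heat. The genes were taken by symbol: every Wnt, Fzd, Sfrp, Dkk and Rspo gene with a number, together with Apcdd1, Wif1, Frzb, Axin1, Axin2, Lrp5, Lrp6, Ctnnb1, Tcf7, Tcf7l1, Tcf7l2, Lef1, Notum, Kremen1, Znrf3 and Rnf43. By role they were 19 ligands, 10 frizzled receptors, 2 LRP co-receptors, 4 R-spondins, 13 secreted or surface inhibitors, 2 ubiquitin ligases that act on the receptors, 3 genes of the beta-catenin branch (Ctnnb1, Axin1 and Axin2) and 4 TCF/LEF transcription factors. All tissue came from males aged 10 weeks that were first held at thermoneutrality (30 °C) for 2 weeks. AdC3KO mice lack CLSTN3B, a product of the Clstn3 locus, in adipocytes, and WT mice were their controls. The groups were AdC3KO after a further 6 h at 4 °C (4 libraries), WT after 6 h at 4 °C (4 libraries), AdC3KO at 30 °C (3 libraries) and WT at 30 °C (3 libraries). Which driver made the deletion adipocyte-specific, and how the WT mice were bred, is not given in the sources used here. Nor do the labels state that the libraries of a group come from separate animals, and the p-values then cover the spread between libraries, which may be technical.

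Wnt proteins are secreted, lipid-modified signals that bind frizzled receptors. With the co-receptors LRP5 and LRP6, the canonical branch keeps beta-catenin from being destroyed, so that it can act with TCF/LEF factors on genes such as Axin2, while other ligands such as WNT5A are best known for signalling without beta-catenin. Canonical Wnt signalling is known to hold back the formation of fat cells, and several of the inhibitors are made by fat tissue or its precursors.

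Each library held between 19.9 M and 29.0 M gene counts (M, 1e6 counts). Levels are in CPM, counts per 1e6 gene counts after each library's total was multiplied by its TMM scaling factor. Clstn3, the targeted locus, averaged 65.8 ± 11.9 CPM in AdC3KO mice and 1110.0 ± 97.4 CPM in WT mice at 4 °C (SD, n = 4 each). It averaged 15.8 ± 1.31 CPM in AdC3KO mice and 207 ± 23.2 CPM in WT mice at 30 °C (SD, n = 3 each). No AdC3KO library reached a WT library of the same temperature. All 10 markers of brown adipocytes were present in every group, with Ucp1, the uncoupling protein of thermogenesis, at 13730.0 ± 1703 CPM in AdC3KO mice and 12690.0 ± 1202 CPM in WT mice at 4 °C, and at 1618 ± 370.1 CPM in AdC3KO mice and 1625 ± 216 CPM in WT mice at 30 °C. Of these 10 markers, 6 were higher and 1 lower at 4 °C in AdC3KO, and 6 were higher and 3 lower in WT. Their sum was 28720.0 to 37740.0 CPM in AdC3KO mice and 26950.0 to 36660.0 CPM in WT mice at 4 °C. At 30 °C it was 9898 to 13260.0 CPM in AdC3KO mice and 10730.0 to 12550.0 CPM in WT mice. The scaling factors of the libraries divided by temperature, from 0.822 to 0.954 at 4 °C and from 1.11 to 1.21 at 30 °C. Marker lists of other cells were set beside temperature. The summed level differed between temperatures with no overlap in either genotype for the endothelial and the mural list, and with overlap in AdC3KO for the Schwann cell list (84.7 to 114 CPM in AdC3KO mice and 80.0 to 108 CPM in WT mice at 4 °C, against 112 to 142 CPM in AdC3KO mice and 134 to 159 CPM in WT mice at 30 °C) and the macrophage list (224 to 388 CPM in AdC3KO mice and 283 to 578 CPM in WT mice at 4 °C, against 166 to 250 CPM in AdC3KO mice and 172 to 202 CPM in WT mice at 30 °C). The summed level of 10 endothelial markers ran from 1585 to 1865 CPM in AdC3KO mice and from 1472 to 1672 CPM in WT mice at 4 °C, and from 844.5 to 953.6 CPM in AdC3KO mice and from 820.0 to 1095 CPM in WT mice at 30 °C, although single markers went both ways (5 higher and 3 lower at 4 °C in AdC3KO, 5 higher and 4 lower in WT). Of 8 mural cell markers, 7 were tested, with 1 higher and 3 lower in AdC3KO and 1 higher and 4 lower in WT, and their sum was 478 to 587 CPM in AdC3KO mice and 477 to 563 CPM in WT mice at 4 °C, against 647 to 730.1 CPM in AdC3KO mice and 644 to 738 CPM in WT mice at 30 °C. Of 8 Schwann cell markers, 1 was higher and 4 were lower in AdC3KO, and 1 was higher and 5 were lower in WT. Of 9 macrophage markers, 4 were higher at 4 °C in AdC3KO and 6 in WT, and none was lower. Among 12 markers of fibroblasts and adipocyte progenitors, 1 was higher and 1 lower in AdC3KO, and 2 were higher and 1 lower in WT, and their sum overlapped between temperatures in both genotypes (995.8 to 1373 CPM in AdC3KO mice and 1130.0 to 1431 CPM in WT mice at 4 °C, against 854.9 to 1390.0 CPM in AdC3KO mice and 1036 to 1343 CPM in WT mice at 30 °C). No marker of these lists was at 0 throughout a group. In bulk tissue, fewer cells of a type and less RNA per cell cannot be told apart, and the part of these marker shifts in the results that follow was not tested. Skeletal muscle markers summed to 31.4 to 427 CPM in 5 libraries (AdC3KO 4 °C replicate 3, WT 4 °C replicate 2, AdC3KO 30 °C replicates 1 and 2, WT 30 °C replicate 3) and to 0.990 to 3.24 CPM in the other 9.

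Cold moved the set mostly in the same way in both genotypes, and the genotype moved none of its genes past the threshold. Of the 57 genes, 35 had enough counts to be tested. At 4 °C against 30 °C, 6 of the 35 rose and 15 fell in AdC3KO, and 8 rose and 12 fell in WT (edgeR quasi-likelihood test, Benjamini-Hochberg adjusted p at 0.05 over 15949 genes). Over all tested genes, 31.0% were higher and 32.1% lower in AdC3KO, and 30.6% were higher and 30.8% lower in WT. The members' shares were 17.1% higher and 42.9% lower in AdC3KO, and 22.9% higher and 34.3% lower in WT, or 60.0% and 57.1% in all, beside 63.0% in AdC3KO and 61.4% in WT over all tested genes, so a cold change was about as frequent among them as in the whole table. Their median log2 fold change was -0.30 in AdC3KO and -0.23 in WT, beside -0.06 and -0.03 over all tested genes. A change of at least 2-fold was reached by 3 risers and 13 fallers in AdC3KO and by 3 risers and 11 fallers in WT. That is 16 of the 35 in AdC3KO and 14 of the 35 in WT, while 34.0% of all tested genes in AdC3KO (2241 up, 3177 down) and 32.3% in WT (2226 up, 2923 down) changed by that much. Both genotypes called 18 of the same genes in the same direction, 6 up and 12 down, which is 85.7% of the AdC3KO calls and 90.0% of the WT calls. The matching share over all tested genes was not counted, so this overlap cannot be read as particular to the set. In this fit Lrp5, Wnt2b and Wnt10b were called in AdC3KO and not in WT, and Lrp6 and Fzd1 in WT and not in AdC3KO, and for none of these did the test of the difference between the genotypes' cold responses pass. These calls moved with the processing: Lrp5, Wnt2b and Wnt10b were each called lower in WT under 3 or 4 of the alternatives, upper-quartile scaling among them, and Lrp6 was called higher in AdC3KO under 1. With upper-quartile scaling, which lowers the median of all genes to -0.29 in AdC3KO and -0.27 in WT, the split became 6 higher and 16 lower in AdC3KO and 6 higher and 15 lower in WT. The small changes of Lrp6, Fzd1 and Lrp5 are therefore relative to the scaling. Without the 5 libraries that held muscle transcripts, 8 rose and 11 fell in AdC3KO, where Wnt10b, Lrp5, Wnt2b, Dkk3 and Rnf43 were no longer called and Lrp6, Wnt4 and Fzd9 were called in addition, and 7 rose and 10 fell in WT, where Dkk3, Rnf43 and Fzd1 were no longer called.

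**Figure D1:**
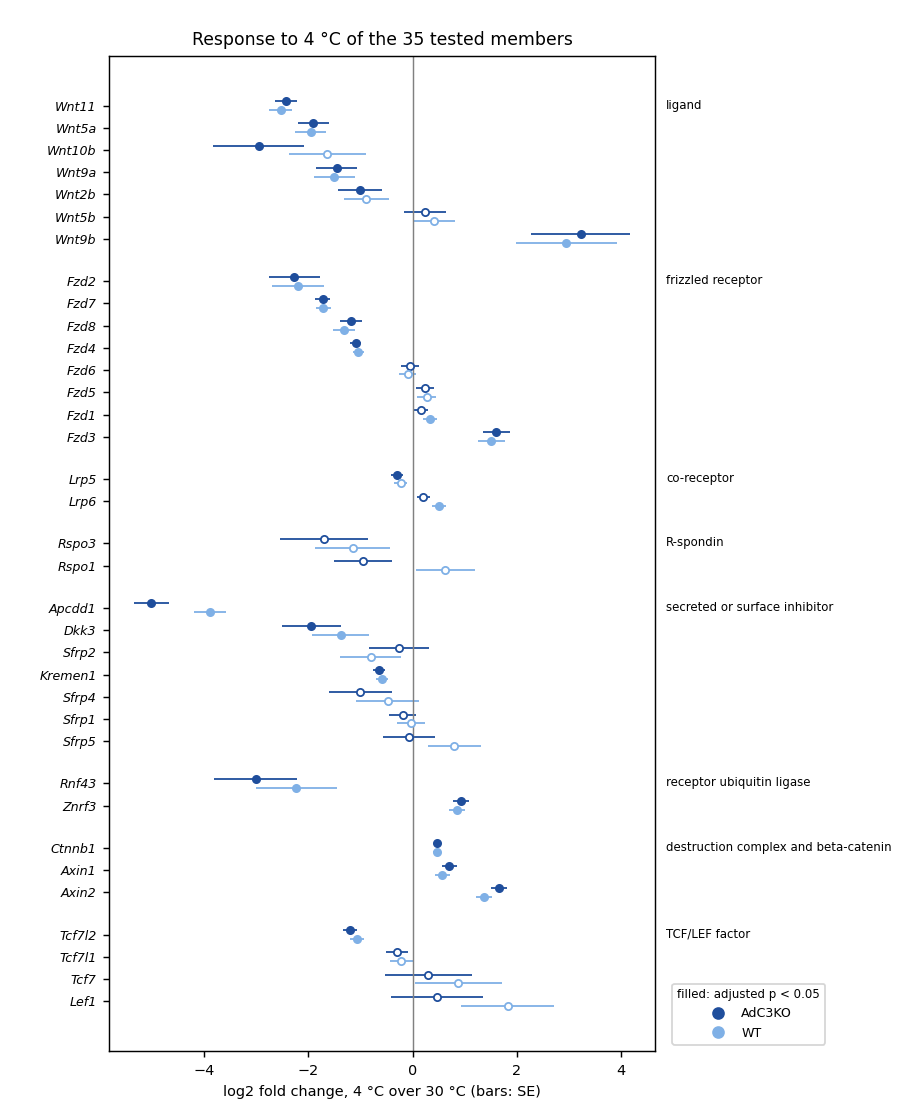
Log2 fold change of 4 °C against 30 °C for each of the 35 tested genes, grouped by role, in AdC3KO and in WT, with bars of 1 SE; filled points passed an adjusted p of 0.05 in edgeR. Apcdd1 lies farthest to the left in both genotypes (-5.01 in AdC3KO and -3.88 in WT), and Axin2, Znrf3 and Fzd3 lie to the right in both.

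Among the ligands, Wnt11, Wnt5a and Wnt9a fell in the cold in both genotypes, and no ligand above 1 CPM rose. Wnt5a (ENSMUSG00000021994, chr14:28504750-28527448 of GRCm38, plus strand) had 3.99, 3.01, 3.03 and 8.18 CPM in AdC3KO at 4 °C, against 18.6, 19.4 and 13.4 CPM in AdC3KO at 30 °C. It had 3.24, 5.76, 4.04 and 4.89 CPM in WT at 4 °C, against 15.2, 19.7 and 17.4 CPM in WT at 30 °C. Every cold library lay below every warm one, and AdC3KO replicate 4 was the highest of the cold libraries. On the log2 scale the change was -1.91 ± 0.30 (SE, adjusted p = 5.88e-05) in AdC3KO and -1.95 ± 0.30 (adjusted p = 5.3e-05) in WT. Wnt11, another ligand known mainly for signalling without beta-catenin (ENSMUSG00000015957, chr7:98835112-98855195, plus strand), fell further. It had 1.53, 1.89, 1.91 and 1.26 CPM in AdC3KO at 4 °C, against 9.52, 7.92 and 9.12 CPM at 30 °C. In WT it had 1.06, 1.21, 1.95 and 1.55 CPM at 4 °C, against 7.17, 7.86 and 10.1 CPM at 30 °C. The groups were far apart, with a 5.37-fold fall in AdC3KO (log2 -2.42 ± 0.22, adjusted p = 8.78e-08) and a 5.77-fold fall in WT (-2.53 ± 0.22, adjusted p = 7.17e-08).

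Wnt9a (ENSMUSG00000000126, chr11:59306928-59333552, plus strand) had 1.01, 0.517, 0.831 and 0.927 CPM in AdC3KO at 4 °C, against 2.16, 1.93 and 2.69 CPM at 30 °C. In WT it had 0.413, 1.78, 0.665 and 1.39 CPM at 4 °C, against 3.93, 2.00 and 3.17 CPM at 30 °C. The cold and warm libraries did not overlap in either genotype, though WT replicate 2 at 4 °C came close to the lowest warm library. The fold change was -1.45 ± 0.40 (adjusted p = 0.00459) in AdC3KO and -1.50 ± 0.39 (adjusted p = 0.0035) in WT. Wnt2b (ENSMUSG00000027840, chr3:104945272-104961921, minus strand) had 0.597, 0.560, 0.635 and 0.506 CPM in AdC3KO at 4 °C, against 1.83, 0.744 and 0.886 CPM at 30 °C. In WT it had 0.530, 0.839, 0.332 and 0.489 CPM at 4 °C, against 1.53, 0.519 and 0.985 CPM at 30 °C, and these groups overlapped. It was called lower in AdC3KO (-1.01 ± 0.42, adjusted p = 0.0484) and not in WT (-0.89 ± 0.44, adjusted p = 0.0902). The AdC3KO call was lost when any of 5 single libraries was left out: without AdC3KO 30 °C replicate 1, the highest, the value was -0.50, and without any single cold AdC3KO library it was -1.04 to -0.93. DESeq2 did not call it either, with an adjusted p of 0.0714. In WT it was called lower with upper-quartile scaling (-1.13, adjusted p = 0.0334), without WT 30 °C replicate 2 (-1.19, adjusted p = 0.0336) and without WT 4 °C replicate 2 (-1.18, adjusted p = 0.041).

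The remaining tested ligands stayed below 1 CPM in every group mean. Wnt9b had 44 counts in AdC3KO and 35 in WT at 4 °C, against 4 in AdC3KO and 4 in WT at 30 °C. Its log2 change was 3.23 ± 0.95 (adjusted p = 0.00732) in AdC3KO and 2.94 ± 0.97 (adjusted p = 0.0148) in WT. All 4 of its counts at 30 °C came from 1 library in each genotype, and without that library the value was 6.52 in AdC3KO (replicate 1) and 6.35 in WT (replicate 3). Both of these libraries were among those with muscle transcripts. Leaving out WT 30 °C replicate 1 or 2 ended the WT call (2.45 and 2.43), and the gene fell below the count filter without WT 4 °C replicate 4 or without AdC3KO 4 °C replicate 2 or 3. Wnt10b, a canonical ligand known as an inhibitor of adipogenesis, had 6 counts in AdC3KO and 18 in WT at 4 °C, against 45 in AdC3KO and 53 in WT at 30 °C. It fell in AdC3KO (-2.95 ± 0.87, adjusted p = 0.00722), and in WT its value was -1.63 ± 0.74 (adjusted p = 0.0669). Under 4 alternatives it was called lower in WT too: upper-quartile scaling (-1.87, adjusted p = 0.0363), no count filter (-1.73, adjusted p = 0.048), without WT 4 °C replicate 4 (-2.07, adjusted p = 0.0381) and without the 2 libraries high in T cell markers (-2.06, adjusted p = 0.0276). Without AdC3KO 4 °C replicate 3 the AdC3KO value was -3.54, and without the libraries with muscle transcripts that call was lost (adjusted p = 0.0866, with 1 AdC3KO library left at 30 °C). Wnt5b had values of 0.24 in AdC3KO and 0.41 in WT and was called in neither genotype. Of the 12 untested ligands, Wnt3, Wnt3a, Wnt7a, Wnt8a and Wnt10a had no count in any library, and Wnt1, Wnt2, Wnt4, Wnt6, Wnt7b, Wnt8b and Wnt16 had between 0 and 31 counts per group. Wnt4 and Wnt6 were the most frequent of these, with 7 and 8 counts in AdC3KO and 9 and 6 counts in WT at 4 °C, against 31 and 30 counts in AdC3KO and 19 and 23 counts in WT at 30 °C. Wnt6 was called lower in AdC3KO when the count filter was left out and without AdC3KO 30 °C replicate 1.

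Levels of different genes were compared only per kb of merged exon. The 19 ligands together summed to 1.87 ± 0.17 CPM per kb in AdC3KO and 1.94 ± 0.38 CPM per kb in WT at 4 °C (SD, n = 4 each), and to 5.98 ± 0.28 CPM per kb in AdC3KO and 6.09 ± 0.41 CPM per kb in WT at 30 °C (SD, n = 3 each). The warm and cold sums did not overlap. Wnt5a made up 30.4% of the ligand sum in AdC3KO and 29.4% in WT at 4 °C, and 36.5% in AdC3KO and 36.7% in WT at 30 °C. Wnt11 made up 21.6% in AdC3KO and 18.2% in WT at 4 °C, and 35.8% in AdC3KO and 33.1% in WT at 30 °C. Wnt5a and Wnt11 had the largest mean shares in every group. In the cold, though, Wnt11 overlapped Wnt9a and Wnt5a in AdC3KO (14.5% to 26.1%, against 8.86% to 17.5% and 20.6% to 49.7%) and Wnt9a and Wnt5b in WT (12.7% to 24.1%, against 8.79% to 23.4% and 10.1% to 20.5%), so that its place was not clear there. The ligand pool as a whole was lower in the cold.

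Promoter windows, 250 bases before to 50 bases after an annotated start, were at hand from RefSeq (GRCm38.p6) for 36 of the 57 genes, in 46 windows. They are shown for 4 genes with clear cold changes, 3 that fell (Wnt11, Fzd7 and Fzd4) and 1 that rose (Axin2), so that the letters can be set beside the expression values. Both strands were searched for CTTTGAT and CTTTGTT, cores bound by TCF/LEF factors, and for TGACGTCA and its first 5 letters TGACG, the whole and the partial cAMP response element. Capitals mark a match on either strand.
Wnt11, chr7:98834862-98835161, plus strand: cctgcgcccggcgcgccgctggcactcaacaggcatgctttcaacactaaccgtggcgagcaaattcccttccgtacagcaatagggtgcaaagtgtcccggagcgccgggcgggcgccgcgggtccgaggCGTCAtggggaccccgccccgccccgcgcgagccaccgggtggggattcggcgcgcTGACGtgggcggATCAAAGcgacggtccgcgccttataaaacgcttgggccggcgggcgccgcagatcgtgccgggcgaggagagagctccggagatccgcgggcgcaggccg
Fzd7, chr1:59481897-59482196, plus strand: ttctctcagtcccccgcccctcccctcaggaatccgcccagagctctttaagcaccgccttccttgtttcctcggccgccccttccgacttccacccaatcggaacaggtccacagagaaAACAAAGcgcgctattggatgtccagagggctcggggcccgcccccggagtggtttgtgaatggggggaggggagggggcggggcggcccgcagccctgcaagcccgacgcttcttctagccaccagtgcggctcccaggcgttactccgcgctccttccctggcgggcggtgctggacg
Fzd4, chr7:89404116-89404415, plus strand: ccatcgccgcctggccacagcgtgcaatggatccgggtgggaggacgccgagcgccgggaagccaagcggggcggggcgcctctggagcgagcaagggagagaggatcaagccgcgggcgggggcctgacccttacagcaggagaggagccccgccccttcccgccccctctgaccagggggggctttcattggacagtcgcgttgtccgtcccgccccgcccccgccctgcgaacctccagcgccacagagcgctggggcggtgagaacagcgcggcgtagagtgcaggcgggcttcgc
Axin2, chr11:108920099-108920398, plus strand: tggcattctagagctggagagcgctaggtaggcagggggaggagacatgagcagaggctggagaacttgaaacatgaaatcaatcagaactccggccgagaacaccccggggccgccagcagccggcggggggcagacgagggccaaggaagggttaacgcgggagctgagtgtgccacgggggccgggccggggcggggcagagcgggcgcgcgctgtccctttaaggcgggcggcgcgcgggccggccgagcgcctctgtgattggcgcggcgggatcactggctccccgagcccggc
The Wnt11 window (the first of 2 for this gene) held ATCAAAG, the reverse complement of CTTTGAT, and TGACG on each strand. The Fzd7 window held AACAAAG, the reverse complement of CTTTGTT, and the windows of Fzd4 and Axin2 held none of the 4 motifs. Over all 32851 windows of this length, 3.73% held CTTTGAT, 5.85% CTTTGTT, 1.79% TGACGTCA and 20.8% TGACG. Among the 46 windows of the set, 2 held CTTTGAT (Wnt11 and Wnt5b), 4 held CTTTGTT (Dkk1, Fzd7, Tcf7l2 and Wnt3), none held TGACGTCA and 7 held TGACG (windows of Ctnnb1, Rspo4, Sfrp5, Tcf7l2, Wnt10b and Wnt11). A match describes letters in a window and does not show that a factor binds there.

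The frizzled receptors fell as a pool, and their makeup shifted. Fzd4, Fzd7, Fzd8 and Fzd2 fell in both genotypes and Fzd3 rose in both. Fzd4, which besides Wnt proteins binds Norrin and is known in endothelial cells (ENSMUSG00000049791, chr7:89404355-89413134, plus strand), was the most abundant receptor per kb in every group. It had 148, 179, 174 and 146 CPM in AdC3KO at 4 °C, against 363, 316 and 356 CPM at 30 °C. In WT it had 179, 161, 178 and 149 CPM at 4 °C, against 338, 326 and 363 CPM at 30 °C. No cold library was above 179 CPM and no warm library was under 316 CPM. On the log2 scale the change was -1.09 ± 0.10 (adjusted p = 9.05e-08) in AdC3KO and -1.04 ± 0.10 (adjusted p = 1.76e-07) in WT. The 10 endothelial markers given above had a higher sum in the cold but went both ways singly. In AdC3KO 5 were higher and 3 lower, and in WT 5 were higher and 4 lower. The part of endothelial cells in the Fzd4 change was not tested.

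Fzd7 (ENSMUSG00000041075, chr1:59482424-59486955, plus strand), a receptor used by canonical and other Wnt proteins, had 9.51, 7.96, 7.18 and 10.2 CPM in AdC3KO at 4 °C, against 33.4, 27.9 and 24.8 CPM at 30 °C. In WT it had 8.13, 9.54, 8.83 and 8.48 CPM at 4 °C, against 24.8, 26.6 and 34.5 CPM at 30 °C. The cold and warm libraries were far apart, and the fall was 3.29-fold in AdC3KO (-1.72 ± 0.15, adjusted p = 4.67e-08) and 3.27-fold in WT (-1.71 ± 0.15, adjusted p = 5.62e-08). Fzd8 (ENSMUSG00000036904, chr18:9212163-9218136, plus strand) had 7.98, 10.1, 13.2 and 5.86 CPM in AdC3KO at 4 °C, against 23.3, 18.5 and 21.3 CPM at 30 °C. In WT it had 8.37, 8.18, 8.97 and 6.36 CPM at 4 °C, against 17.0, 19.2 and 23.1 CPM at 30 °C. Its groups were also apart, with more spread among the cold AdC3KO libraries than among the cold WT ones, and the fold change was -1.18 ± 0.21 (adjusted p = 0.000133) in AdC3KO and -1.31 ± 0.21 (adjusted p = 5.66e-05) in WT. Fzd2 (ENSMUSG00000050288, chr11:102604396-102608058, plus strand) was low throughout, with 0.261, 0.0430, 0.391 and 0.717 CPM in AdC3KO at 4 °C, against 1.77, 1.60 and 1.77 CPM at 30 °C. In WT it had 0.177, 0.524, 0.332 and 0.489 CPM at 4 °C, against 2.19, 1.64 and 1.51 CPM at 30 °C. The groups did not overlap, and the fold change was -2.27 ± 0.49 (adjusted p = 0.000812) in AdC3KO and -2.19 ± 0.50 (adjusted p = 0.00119) in WT. Without AdC3KO 4 °C replicate 4, the highest cold library, the AdC3KO value was -2.86.

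Fzd3, a receptor known for planar polarity and axon growth (ENSMUSG00000007989, chr14:65192449-65262463, minus strand), went the other way. It had 4.25, 3.14, 4.20 and 4.09 CPM in AdC3KO at 4 °C, against 1.47, 1.45 and 0.923 CPM at 30 °C. In WT it had 3.18, 4.56, 2.80 and 3.47 CPM at 4 °C, against 0.953, 1.52 and 1.20 CPM at 30 °C. Every cold library was above every warm one, and the rise was 1.61 ± 0.26 (adjusted p = 4.8e-05) in AdC3KO and 1.51 ± 0.26 (adjusted p = 0.000101) in WT on the log2 scale. Fzd1 was 16.7 to 22.0 CPM in the cold and 12.2 to 18.1 CPM at 30 °C over both genotypes, with overlap. It was called higher in WT (0.34 ± 0.14, adjusted p = 0.0396) and not in AdC3KO (0.17 ± 0.14, adjusted p = 0.295), and the WT call was lost without WT 4 °C replicate 1, 2 or 3 or WT 30 °C replicate 3 (0.20 to 0.36) and with upper-quartile scaling (0.10). Fzd5 and Fzd6 were called in neither genotype, with values of 0.24 and -0.05 in AdC3KO and 0.27 and -0.09 in WT. Fzd9 and Fzd10 were below the filter. Fzd9 had 49 counts in AdC3KO and 20 in WT at 4 °C, against 6 in AdC3KO and 12 in WT at 30 °C, and 10 of the 12 WT counts at 30 °C came from replicate 3. It was called higher in AdC3KO by DESeq2, when the count filter was left out, without any one of the 3 AdC3KO 30 °C libraries and without the 5 libraries with muscle transcripts. In WT it was called higher without WT 30 °C replicate 3.

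The 10 receptors summed to 36.0 ± 3.42 CPM per kb in AdC3KO and 36.6 ± 3.18 CPM per kb in WT at 4 °C (SD, n = 4 each), and to 69.1 ± 4.71 CPM per kb in AdC3KO and 68.2 ± 3.71 CPM per kb in WT at 30 °C (SD, n = 3 each). Fzd4 made up 66.9% of this sum in AdC3KO and 67.8% in WT at 4 °C, and 74.3% in AdC3KO and 74.6% in WT at 30 °C. Fzd1, which was not called lower, took 12.3% in AdC3KO and 12.6% in WT at 4 °C, and 5.71% in AdC3KO and 5.39% in WT at 30 °C. Fzd7 took 5.43% in AdC3KO and 5.30% in WT at 4 °C, and 9.17% in AdC3KO and 9.21% in WT at 30 °C. At 30 °C Fzd7 therefore came next after Fzd4 and was followed by Fzd1 and Fzd8 (5.09% in AdC3KO and 4.84% in WT), whose shares overlapped, and in the cold Fzd1 came next and was followed by Fzd6 and Fzd7, whose shares overlapped there.

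**Figure D2:**
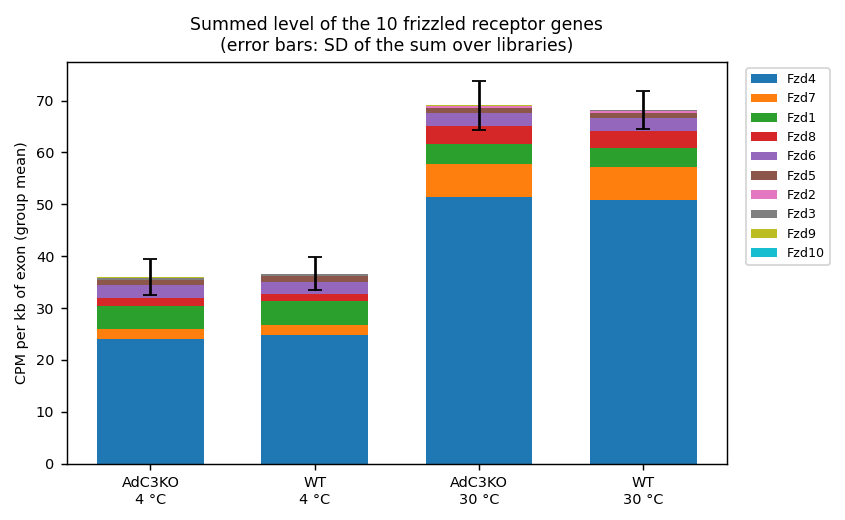
Summed level of the 10 frizzled receptors in CPM per kb of merged exon, as stacked group means with 1 colour per receptor, for AdC3KO and WT at 4 °C and AdC3KO and WT at 30 °C; error bars are the SD of the sum over libraries. Fzd4 is the largest segment in all 4 groups, and the sums are 36.0 and 36.6 at 4 °C and 69.1 and 68.2 at 30 °C.

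The 2 co-receptors changed by small amounts, and which genotype passed the test moved with the processing. Lrp6 (ENSMUSG00000030201, chr6:134446476-134566965, minus strand) had 134, 124, 135 and 135 CPM in AdC3KO at 4 °C, against 130.4, 119 and 94.0 CPM at 30 °C, and these overlapped. In WT it had 164, 139.6, 161 and 135 CPM at 4 °C, against 91.0, 95.3 and 130.5 CPM at 30 °C, and these did not. It rose in WT (0.50 ± 0.13, adjusted p = 0.0032) and was not called in AdC3KO (0.21 ± 0.13, adjusted p = 0.172), with a difference between the responses of -0.30 ± 0.18 (adjusted p = 1). Upper-quartile scaling ended the WT call (0.26) and turned the AdC3KO value to -0.02, whereas without the 5 libraries with muscle transcripts it was called higher in AdC3KO (0.48, adjusted p = 0.0245, with 1 AdC3KO library left at 30 °C). Lrp5 (ENSMUSG00000024913, chr19:3584828-3686564, minus strand) had 34.8, 34.2, 38.5 and 40.9 CPM in AdC3KO at 4 °C, against 52.8, 42.2 and 41.7 CPM at 30 °C. In WT it had 32.5, 40.7, 43.7 and 39.0 CPM at 4 °C, against 49.3, 39.7 and 48.1 CPM at 30 °C, with overlap. It was called lower in AdC3KO (-0.30 ± 0.12, adjusted p = 0.0377) and not in WT (-0.23 ± 0.12, adjusted p = 0.109). Without AdC3KO 4 °C replicate 1, 2 or 3 or AdC3KO 30 °C replicate 1 that call was lost (-0.29 to -0.18), and DESeq2 did not make it (adjusted p = 0.0729). In WT it was called lower with upper-quartile scaling (-0.47, adjusted p = 0.00205), with no count filter (-0.32, adjusted p = 0.0266), with a filter at 5 CPM (-0.32, adjusted p = 0.0255) and without WT 30 °C replicate 2 (-0.32, adjusted p = 0.0487).

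R-spondins are secreted proteins that keep frizzled receptors on the cell surface by removing the ubiquitin ligases ZNRF3 and RNF43. Their own transcripts were scarce: Rspo1 had 27 counts in AdC3KO and 41 in WT at 4 °C, against 48 in AdC3KO and 25 in WT at 30 °C, and Rspo3 had 8 in AdC3KO and 19 in WT at 4 °C, against 24 in AdC3KO and 40 in WT at 30 °C. Neither was called in the cold (Rspo1 -0.95 in AdC3KO and 0.63 in WT, Rspo3 -1.69 in AdC3KO and -1.15 in WT), although Rspo3 was called lower in AdC3KO without AdC3KO 30 °C replicate 3 (-2.13, adjusted p = 0.0441). Rspo2 had no count at 4 °C in either genotype and 12 counts in AdC3KO and 4 in WT at 30 °C (called lower in AdC3KO when the count filter was left out), and Rspo4 had 3 to 14 counts per group. The ligases went opposite ways. Znrf3 averaged 14.2 ± 2.86 CPM in AdC3KO mice and 14.5 ± 0.54 CPM in WT mice at 4 °C (SD, n = 4 each), and 7.48 ± 1.30 CPM in AdC3KO mice and 8.03 ± 0.62 CPM in WT mice at 30 °C (SD, n = 3 each), a rise of 0.93 ± 0.16 (adjusted p = 8.3e-05) in AdC3KO and 0.85 ± 0.16 (adjusted p = 0.00019) in WT. Rnf43 had 6 counts in AdC3KO and 8 in WT at 4 °C, against 45 in AdC3KO and 37 in WT at 30 °C, a fall of -3.00 ± 0.80 (adjusted p = 0.00364) in AdC3KO and -2.23 ± 0.78 (adjusted p = 0.0209) in WT. Without AdC3KO 4 °C replicate 1 the AdC3KO value was -4.73, and without WT 4 °C replicate 3 or WT 30 °C replicate 2 or 3 the WT call was lost (-2.14 to -1.82).

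Among the inhibitors, Apcdd1 had the largest change of all 35 tested genes in the cold. APCDD1 is a membrane protein that binds Wnt proteins and LRP5 and is known as an inhibitor of the canonical branch. The gene (ENSMUSG00000071847, chr18:62922231-62961179, plus strand) had 0.783, 0.732, 0.733 and 0.885 CPM in AdC3KO at 4 °C, against 26.6, 29.8 and 19.9 CPM in AdC3KO at 30 °C. It had 1.83, 0.577, 1.95 and 1.30 CPM in WT at 4 °C, against 23.8, 26.4 and 12.6 CPM in WT at 30 °C. The lowest warm library, WT replicate 3, was still far above the highest cold one. The fall was 32.2-fold in AdC3KO (log2 -5.01 ± 0.33, adjusted p = 9.36e-09) and 14.8-fold in WT (-3.88 ± 0.31, adjusted p = 7.12e-08). Across the alternatives of processing and with each library left out in turn it stayed between -5.24 and -4.63 in AdC3KO and between -4.14 and -3.64 in WT. At 4 °C, 3 of 4 WT libraries were above all AdC3KO libraries and WT replicate 2 was below them all. In edgeR the genotype difference was -0.84 ± 0.36 at 4 °C (unadjusted p = 0.0324, adjusted p = 0.963) and 0.28 ± 0.29 at 30 °C (adjusted p = 1), and the difference between the cold responses was -1.13 ± 0.46 (unadjusted p = 0.027, adjusted p = 1). Neither passed.

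**Figure D3:**
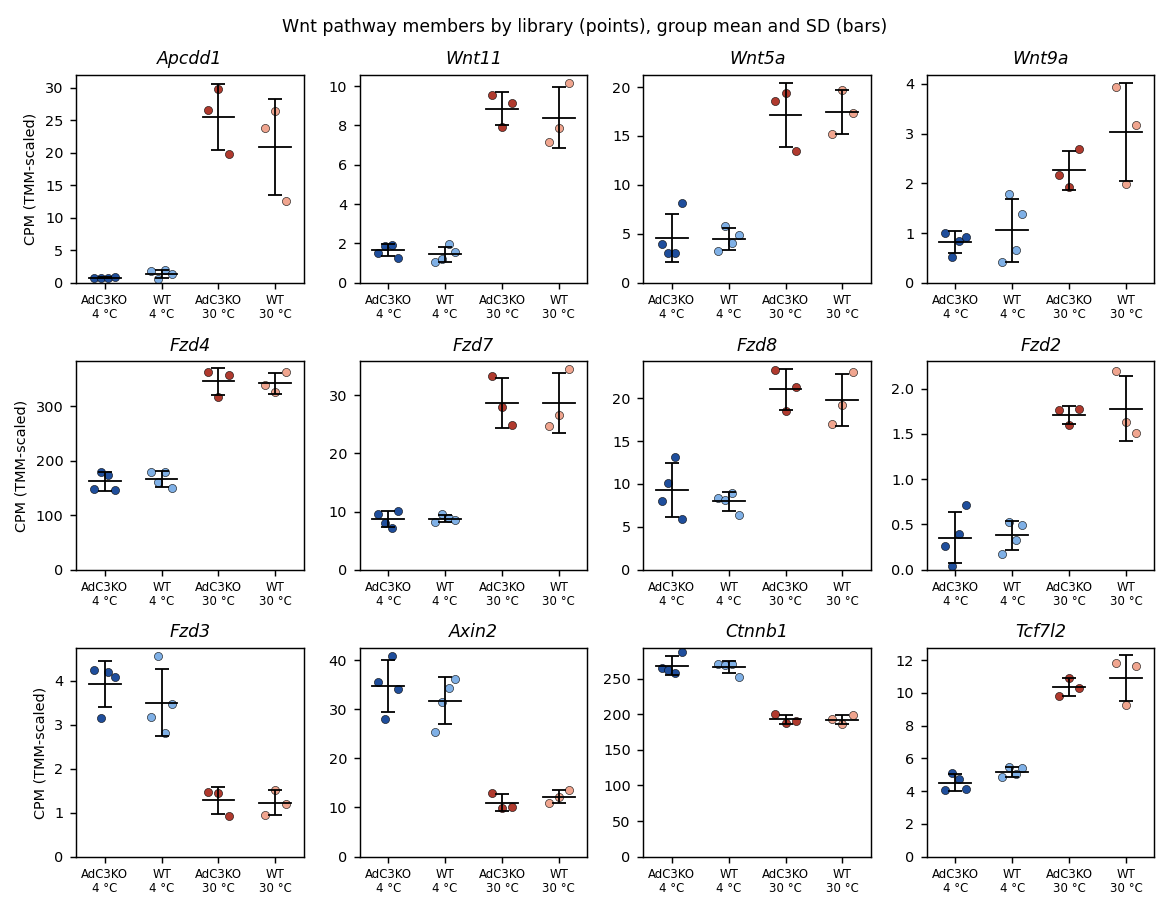
CPM in each of the 14 libraries (points) for 12 genes of the set, 1 panel a gene, with groups from left to right AdC3KO at 4 °C, WT at 4 °C, AdC3KO at 30 °C and WT at 30 °C and the group mean and SD as bars. Apcdd1 lies at 0.577 to 1.95 CPM in the 8 cold libraries and at 12.6 to 29.8 CPM in the 6 warm ones, and Axin2, Ctnnb1 and Fzd3 lie the other way round.

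Kremen1, a DKK receptor that removes LRP5 and LRP6 from the surface, averaged 16.5 ± 1.59 CPM in AdC3KO mice and 17.1 ± 1.11 CPM in WT mice at 4 °C, and 25.9 ± 4.28 CPM in AdC3KO mice and 25.8 ± 1.16 CPM in WT mice at 30 °C. It fell by 0.65 on the log2 scale in AdC3KO (adjusted p = 0.000132) and by 0.59 in WT (adjusted p = 0.000326). Dkk3, a Dickkopf relative that does not act on Wnt signalling in the way of DKK1, had 24 counts in AdC3KO and 30 in WT at 4 °C, against 84 in AdC3KO and 76 in WT at 30 °C. It fell in AdC3KO (-1.94 ± 0.56, adjusted p = 0.00637) and in WT (-1.38 ± 0.55, adjusted p = 0.039). Without AdC3KO 4 °C replicate 4 the AdC3KO value was -2.61, and the WT call was lost without WT 4 °C replicate 2 or 4 or WT 30 °C replicate 1 or 3 (-1.37 to -1.14). The secreted frizzled-related proteins, which bind Wnt proteins outside the cell, were called in neither genotype. Sfrp1 averaged 3.19 ± 0.59 CPM in AdC3KO mice and 3.00 ± 0.48 CPM in WT mice at 4 °C, and 3.64 ± 0.98 CPM in AdC3KO mice and 3.04 ± 1.12 CPM in WT mice at 30 °C. Sfrp2, Sfrp4 and Sfrp5 had cold values of -0.26, -1.0 and -0.07 in AdC3KO and -0.80, -0.47 and 0.80 in WT. Their SEs were 0.50 to 0.60 in AdC3KO and 0.51 to 0.60 in WT, against 0.26 and 0.27 for Sfrp1. The inhibitors Dkk1, Dkk2, Frzb, Notum and Wif1 were below the filter, with 0 to 28 counts per group, and Dkk4 had no count in any library.

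The 3 genes of the beta-catenin branch rose together in both genotypes. Axin2, a scaffold of the complex that destroys beta-catenin and a widely used target gene of canonical signalling (ENSMUSG00000000142, chr11:108920349-108950783, plus strand), had 35.6, 28.1, 40.9 and 34.2 CPM in AdC3KO at 4 °C, against 12.9, 9.86 and 10.2 CPM at 30 °C. In WT it had 25.3, 31.4, 34.3 and 36.1 CPM at 4 °C, against 11.0, 12.2 and 13.5 CPM at 30 °C. Every cold library lay above every warm one. The rise was 3.16-fold in AdC3KO (1.66 ± 0.15, adjusted p = 1.17e-07) and 2.60-fold in WT (1.38 ± 0.15, adjusted p = 9.29e-07). Ctnnb1, which encodes beta-catenin (ENSMUSG00000006932, chr9:120929216-120960507, plus strand), had 266, 263, 258 and 288 CPM in AdC3KO at 4 °C, against 200.2, 188 and 191 CPM at 30 °C. In WT it had 271, 270.1, 272 and 253 CPM at 4 °C, against 193, 186 and 199 CPM at 30 °C. The groups were apart and the spread within each was small, with a rise of 0.48 ± 0.07 (adjusted p = 3.24e-05) in AdC3KO and 0.47 ± 0.07 (adjusted p = 4.26e-05) in WT. Ctnnb1 shares 759 exonic bases with Ulk4 on the other strand, and Axin2 shares 209 with an antisense gene. The strand setting of the counting is not given in the sources used here. If strand was ignored, reads on the shared bases would be left out as reads on more than 1 gene. Ulk4 had 185 counts over the 14 libraries and the partner of Axin2 137, counts that would then not include such reads. The part of these overlaps in the values was not tested. Axin1, the related scaffold that is not known as a target gene, averaged 35.5 ± 6.71 CPM in AdC3KO mice and 35.4 ± 4.97 CPM in WT mice at 4 °C, and 21.8 ± 1.08 CPM in AdC3KO mice and 23.8 ± 1.03 CPM in WT mice at 30 °C, a rise of 0.70 ± 0.14 (adjusted p = 0.000334) in AdC3KO and 0.57 ± 0.14 (adjusted p = 0.00199) in WT. With upper-quartile scaling the rises of Ctnnb1, Axin1 and Axin2 were still called in both genotypes, but their size depended on the processing. Over the alternatives Ctnnb1 ran from 0.245 to 0.518 in AdC3KO and from 0.225 to 0.502 in WT. Axin1 ran from 0.471 to 0.826 in AdC3KO and from 0.328 to 0.635 in WT.

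Of the TCF/LEF factors, which bring beta-catenin to DNA, Tcf7l2 fell and the other 3 were not called. Tcf7l2 (ENSMUSG00000024985, chr19:55741820-55933654, plus strand) had 4.07, 5.12, 4.74 and 4.13 CPM in AdC3KO at 4 °C, against 9.81, 10.9 and 10.3 CPM at 30 °C. In WT it had 4.83, 5.45, 5.03 and 5.42 CPM at 4 °C, against 11.8, 9.26 and 11.6 CPM at 30 °C. Every cold library was well under every warm one, with a fold change of -1.20 ± 0.14 (adjusted p = 1.47e-06) in AdC3KO and -1.07 ± 0.14 (adjusted p = 5.34e-06) in WT. Tcf7l1, mostly known as a repressor, averaged 6.79 ± 1.61 CPM in AdC3KO mice and 7.44 ± 0.98 CPM in WT mice at 4 °C, and 8.34 ± 1.34 CPM in AdC3KO mice and 8.62 ± 2.32 CPM in WT mice at 30 °C, with values of -0.30 in AdC3KO and -0.21 in WT, and it was called lower in AdC3KO with upper-quartile scaling (-0.53, adjusted p = 0.0371). Tcf7 and Lef1, which are also markers of T lymphocytes, were uneven between libraries. Tcf7 had 2.20, 0.775, 0.440 and 0.295 CPM in AdC3KO mice and 0.236, 0.314, 0.997 and 3.96 CPM in WT mice at 4 °C, and 0.916, 0.632 and 0.738 CPM in AdC3KO mice and 0.994, 0.599 and 0.704 CPM in WT mice at 30 °C. Lef1 had 0.671, 0.0430, 0.0489 and 0.126 CPM in AdC3KO mice and 0.177, 0.105, 0.475 and 1.06 CPM in WT mice at 4 °C, and 0.131 to 0.186 CPM in AdC3KO mice and 0.106 to 0.166 CPM in WT mice at 30 °C. The highest library for both genes was WT replicate 4 at 4 °C, followed by AdC3KO replicate 1 at 4 °C. These were also the highest in the summed level of 10 T cell markers, a list added after the values were seen, with 35.6 CPM in that WT library and 18.1 CPM in that AdC3KO library against 3.12 to 10.0 CPM in the other 12. Their summed macrophage markers were also the highest of their groups, at 578 CPM in the WT library against 283 to 302 CPM in the other 3, and at 388 CPM in the AdC3KO library against 224 to 238 CPM in the other 3, and the part of these cells in the values was not tested. Without either library the cold value of Tcf7 was -0.57 in AdC3KO and -0.51 in WT, against 0.30 and 0.88 with all libraries, and none of the 4 values was called. Lef1 was called higher in WT (2.11, adjusted p = 0.0456) without WT 4 °C replicate 2.

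**Figure D4:**
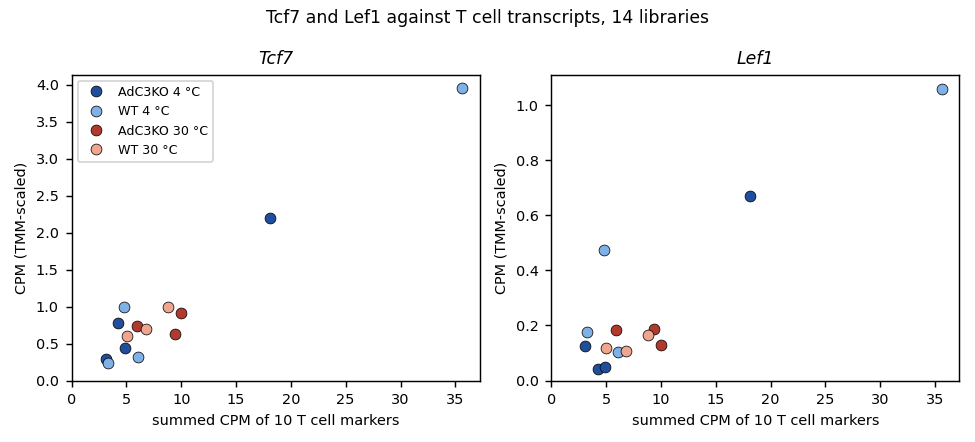
Tcf7 and Lef1 (CPM, vertical axes) against the summed level of 10 T cell markers (CPM) in the 14 libraries, coloured by group. WT replicate 4 and AdC3KO replicate 1 at 4 °C, with 35.6 and 18.1 CPM of T cell markers, lie at the upper right for both genes.

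Per kb, the order of the set at 30 °C began with Fzd4 (51.4 CPM per kb in AdC3KO and 50.9 in WT), Ctnnb1 (37.1 in both) and then Lrp6 (8.37 in AdC3KO and 7.72 in WT). At 4 °C Ctnnb1 came first (51.7 CPM per kb in AdC3KO and 51.3 in WT), ahead of Fzd4 (24.1 in AdC3KO and 24.8 in WT) and then Lrp6 (9.67 in AdC3KO and 11.0 in WT) and Axin1 (9.27 in AdC3KO and 9.24 in WT), whose libraries overlapped. Axin2 was at 6.30 CPM per kb in AdC3KO and 5.77 in WT at 4 °C, and at 1.99 in AdC3KO and 2.22 in WT at 30 °C, whereas Apcdd1 was at 0.0608 in AdC3KO and 0.110 in WT at 4 °C, and at 1.97 in AdC3KO and 1.62 in WT at 30 °C. The levels of Axin2 and Apcdd1 per kb were thus close at 30 °C and far apart in the cold. The closeness rests on the merged exon lengths, 12884 bases for Apcdd1 and 5506 for Axin2, which may be longer than the transcripts made in this tissue.

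Between the genotypes, no gene of the set passed the test. Over all genes, 0.0502% were called for AdC3KO against WT at 4 °C (8 genes) and 0.0439% at 30 °C (7 genes), and 0% were called for the difference between the cold responses. At 4 °C the log2 fold changes of the 35 genes ran from -1.63 (Wnt10b) to 0.51 (Sfrp2), and 1 of them, Apcdd1, had an unadjusted p under 0.05. At 30 °C they ran from -0.86 (Rspo3) to 0.79 (Rspo1), with 0 under an unadjusted p of 0.05, and the lowest unadjusted p was 0.198 in edgeR. Differences between the cold responses ran from -1.58 (Rspo1) to 0.55, and again 1 gene, Apcdd1, had an unadjusted p under 0.05. DESeq2 called 0 in each of these comparisons. The genes at the ends of these ranges had few counts and wide errors, such as Wnt10b with -1.63 ± 0.93 at 4 °C, whereas for the abundant genes the values were near 0 with small errors: Fzd4 -0.04 ± 0.09, Ctnnb1 0.01 ± 0.07 and Lrp5 -0.07 ± 0.11 at 4 °C.

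**Figure D5:**
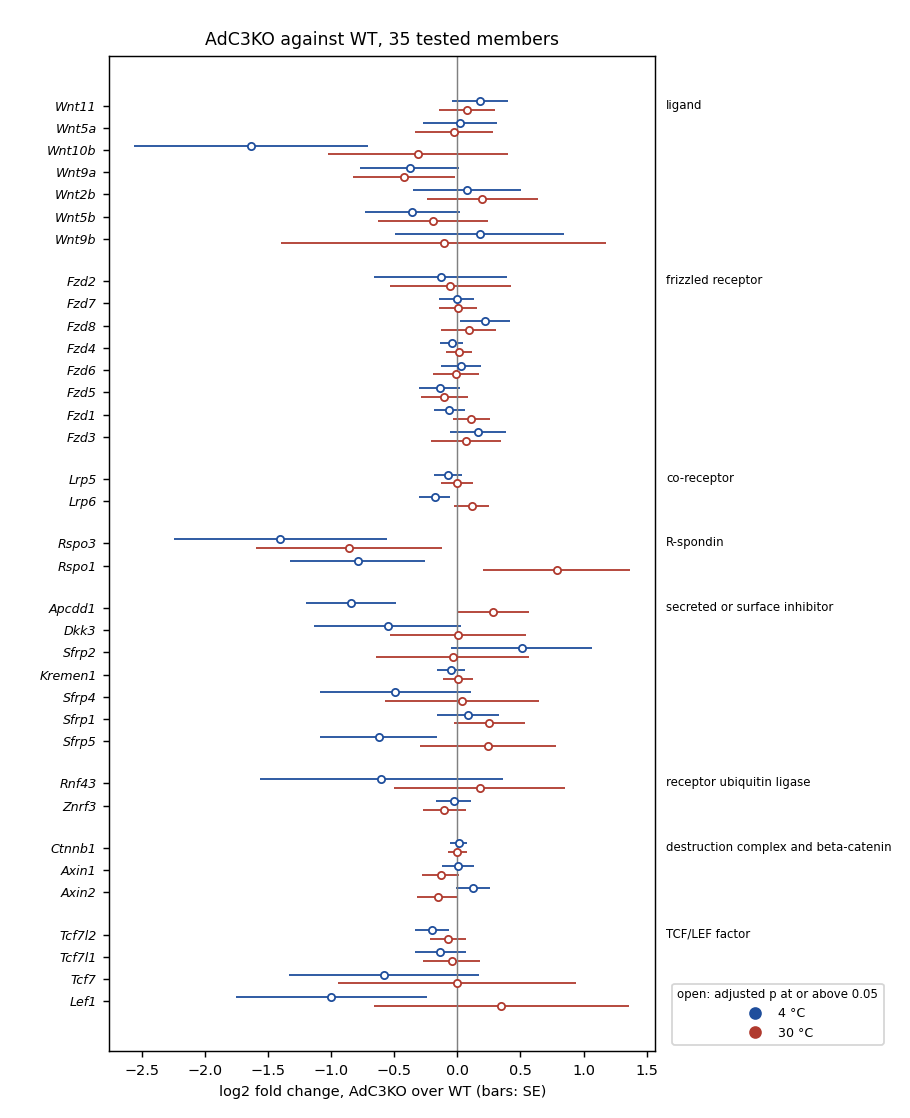
Log2 fold change of AdC3KO against WT at 4 °C and at 30 °C for the 35 tested genes, with bars of 1 SE. No point passed an adjusted p of 0.05, and Wnt10b at 4 °C (-1.63 ± 0.93) lies farthest from 0.

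Genes of the pathway outside the set were set beside it. Of a list of 54 other pathway genes, 53 were found in the table and 49 tested, of which 15 rose and 20 fell in AdC3KO and 15 rose and 22 fell in WT, or 71.4% in AdC3KO and 75.5% in WT beside 63.0% and 61.4% over all tested genes, with a median of -0.31 in AdC3KO and -0.28 in WT. None was called between genotypes at either temperature or for the difference between cold responses. The largest falls in WT above 1 CPM were those of Tle2, a Groucho corepressor (-2.42 in AdC3KO and -2.44 in WT), Vangl2, a planar polarity protein (-2.35 and -2.30) and Pygo1, a nuclear partner of beta-catenin (-2.62 and -2.22). The largest rises in WT were those of Fbxw11, Lgr6 and Tle3. Fbxw11, an adaptor of the ligase that marks beta-catenin for destruction, rose by 1.19 in AdC3KO and 1.28 in WT. Btrc, which has the same role and was added after its values were seen, fell (-1.45 in AdC3KO and -1.29 in WT). Lgr6, an R-spondin receptor, rose by 1.36 and 1.22. Tle3, another Groucho corepressor known in adipocytes, rose by 0.98 and 1.19. Lgr6 averaged 195 ± 8.21 CPM in AdC3KO mice and 183 ± 40.9 CPM in WT mice at 4 °C, and 75.6 ± 16.9 CPM in AdC3KO mice and 78.4 ± 21.5 CPM in WT mice at 30 °C. Of 16 genes known as Wnt targets in other tissues (2 of them also on the first list), 9 were tested. In AdC3KO 2 rose (Myc 0.98, Fosl1 4.23) and 3 fell (Twist1 -1.16, Jag1 -1.10, Bambi -0.71), and in WT 3 rose (Myc 1.33, Fosl1 3.22, Cd44 0.65) and 2 fell (Twist1 -1.11, Jag1 -0.98). Bambi and Fosl1 lie outside the naming rule and were added after their values were seen. Fosl1 had 5 counts in AdC3KO and 6 in WT at 30 °C, so its values rest on few counts. The called targets went both ways in each genotype, as did the calls over all tested genes. Their share was 55.6% in each genotype, beside 63.0% in AdC3KO and 61.4% in WT over all tested genes.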

How the data were processed

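RNA-seq libraries of brown adipose tissue were prepared with the NEBNext Ultra II RNA kit, per the labels' protocols. Reads were trimmed with Trimmomatic, checked with FastQC, aligned to GRCm38/mm10 with STAR and counted per gene with HTSeq, per the series' design text and the submitters' processing notes. No version, annotation release or strand setting is given in the sources used here. The authors deposited raw counts per Ensembl gene, without normalisation. Reads outside any gene (5.95% to 8.19% of a library) and reads on more than 1 gene (5.53% to 6.03%) stood on summary lines that were left out. Symbols, spans and merged exon lengths came from the reference annotation of GRCm38 by exact identifier. Within each group, no pair of libraries agreed within sampling noise, and each library was counted as 1. This does not show that the libraries come from separate animals.

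Counts were fitted with edgeR 4.0.16 in R 4.3.3: filterByExpr at a minimum count of 10, TMM scaling (factors 0.822 to 1.21), and 1 robust quasi-likelihood fit of the 4 group means over all 14 libraries, with Benjamini-Hochberg adjustment at 0.05 over 15949 genes. The step was also run on simulated data in which far fewer genes changed than were called in the cold. That run therefore does not bear on the cold calls. Expression is CPM with TMM factors, and a log2 fold change carries a standard error taken from the test statistic. Alternatives were DESeq2 1.42.0, other scaling, other filters, a replicate block, the compared groups alone, and libraries left out. Genes are given by library where a call came with at least a 2-fold change and 1 CPM in the higher group, together with Apcdd1, Axin2, Ctnnb1, Lrp5, Lrp6 and Tcf7l2. The genes of the set and the lists were chosen with earlier results of these data known.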

Additional observations from a re-analysis of the deposited data

Results flagged for a closer look

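In each group of 4 libraries, a library was marked when its gap to the nearest other was an unusually large part of the group's range (Dixon's test). This marked 4 of 70 gene and group pairs, and chance marks about 1 in 20 groups. Lef1 was at 0.671 CPM in AdC3KO replicate 1 at 4 °C, far above the other 3, and that library also had the second highest sum of T cell markers, whose part in the result was not tested. Lrp6 was at 124 CPM in AdC3KO replicate 2 at 4 °C, against 134 to 135 CPM in the other 3. Fzd3 was at 3.14 CPM in the same library, below the rest of its group. Ctnnb1 was at 253 CPM in WT replicate 4 at 4 °C, against 270.1 to 272 CPM in the other 3.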

How the results depend on the processing

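With each library left out in turn, the number of genes that rose in the cold was 5 to 7 in AdC3KO and 7 to 8 in WT, and the number that fell was 13 to 16 in AdC3KO and 10 to 13 in WT. Both genotype comparisons and the difference between cold responses gave 0 calls in either direction in every alternative run, with leave-one-out ranges of 0 to 0. A filter at 5 CPM, which leaves low genes out, gave 9 fallers in AdC3KO and 5 risers in WT. Replicate numbers in the sample descriptions differ from those in the titles, and only the titles' numbers were used, here and in the replicate block. Over 19 same-number pairs of the titles the correlation of deviations ran from -0.39 to 0.31, and 2 were above 0.1. A pair with different numbers, WT replicate 4 and AdC3KO replicate 1 at 4 °C, had 0.63. These are the 2 libraries high in T cell markers. A pairing by other numbers or a shared batch was not tested. With a replicate block the calls were 6 up and 14 down in AdC3KO, where Wnt2b lost its call, and 8 up and 12 down in WT.

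Each gene's value in each alternative was set beside its main value. Of these single values, 966 kept direction and side of the threshold, 41 lost a call, 15 gained one and 28 turned sign. No value that turned was called. Calls lost because a gene fell below an alternative's filter are not in these counts. With the filter at 5 CPM, 13 of 21 calls were kept in AdC3KO and 13 of 20 in WT. The cause of each turn was not tested. With single libraries left out, the cold values in AdC3KO ran from -0.57 to 0.61 for Tcf7, -0.20 to 0.06 for Fzd6, -0.70 to 0.41 for Sfrp2 and -0.66 to 0.20 for Sfrp5. In WT they ran from -0.52 to 1.18 for Tcf7, -0.36 to 0.019 for Tcf7l1, -0.18 to 0.01 for Fzd6 and -0.18 to 0.33 for Sfrp1. With the replicate block, AdC3KO values were -0.002 for Lef1, 0.001 for Fzd6 and 0.031 for Sfrp2. With upper-quartile scaling, they were -0.024 for Lrp6 and -0.067 for Fzd1. Without the 2 T cell libraries, an alternative chosen after seeing the data, AdC3KO values were -0.57 for Tcf7, 0.061 for Fzd6 and 0.19 for Sfrp5, and WT values were -0.51 for Tcf7 and 0.011 for Fzd6. Without the 5 muscle libraries, Rspo3 was 0.11 in AdC3KO, Sfrp1 was 0.27 in WT, and Apcdd1 was -0.34 for AdC3KO against WT at 30 °C. That alternative left 1 AdC3KO library at 30 °C, which was assumed to vary like the other groups. Genes under 1 CPM rest on few counts, and their errors are wide.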

Other observations

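Over the 14 libraries, the 5 protein-coding genes whose log2 CPM followed Apcdd1 most closely, among 13540, were Usp46 (Pearson r = 0.987), Rai2 (0.987), Ccs (0.987), Tsen34 (0.986) and Gpd1l (0.986). These correlations describe libraries that fall into a cold and a warm cluster, so any gene with a steady fall in the cold ranks high, and no p is given. Gpd1l, a relative of glycerol-3-phosphate dehydrogenase, averaged 12.2 ± 1.02 CPM in AdC3KO mice and 13.0 ± 1.48 CPM in WT mice at 4 °C (SD, n = 4 each), and 54.8 ± 2.43 CPM in AdC3KO mice and 51.2 ± 3.92 CPM in WT mice at 30 °C (SD, n = 3 each). Ccs, the copper chaperone of superoxide dismutase, averaged 29.3 ± 2.93 CPM in AdC3KO mice and 31.2 ± 2.98 CPM in WT mice at 4 °C, and 61.9 ± 0.88 CPM in AdC3KO mice and 60.0 ± 4.43 CPM in WT mice at 30 °C.

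Porcn, the enzyme that attaches the lipid without which Wnt proteins are not secreted, was looked up after its values were seen. It averaged 2.80 ± 0.68 CPM in AdC3KO mice and 2.63 ± 0.35 CPM in WT mice at 4 °C, and 9.87 ± 0.49 CPM in AdC3KO mice and 9.29 ± 1.34 CPM in WT mice at 30 °C, a log2 change of -1.82 in both (adjusted p = 4.25e-07 in AdC3KO and 5.22e-07 in WT, edgeR). Wls, which carries Wnt proteins to the cell surface, was not called, with 0.01 in AdC3KO and -0.11 in WT.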
